A study of Saccharomyces paradoxus and Saccharomyces cerevisiae and Nakaseomyces glabratus with 58 samples.

Results

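Candida glabrata (Nakaseomyces glabratus) is a yeast related to Saccharomyces cerevisiae, and its gene CAGL0M09955g is 1 of 2 C. glabrata genes that the authors' orthology table puts in the orthogroup of S. cerevisiae SFP1. The experiment described here is the set of RNA sequencing libraries from C. glabrata lacking CAGL0M09955g in log phase, set against wild type C. glabrata of the same phase, over all genes. These are 6 of the 58 samples of the series, 3 of the deletion and 3 of the wild type, chosen by their genotype and phase labels. A further 3 libraries, of a deletion of the other paralog, CAGL0D00682g, were fitted with them, and 6 S. cerevisiae log phase libraries, 3 of an sfp1 deletion and 3 of wild type, served as an outside comparison. All these cultures carry the label BMW, which the labels do not spell out, and were collected at an optical density of 0.6 to 0.8, and the sequenced RNA was polyA RNA. The strain background, the marker used for the deletion and the number of independent deletion clones are unknown from the sources used here, as is whether replicates A, B and C came from separate cultures, so p-values measure the spread between these samples, which may be technical.

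In S. cerevisiae, Sfp1 is a zinc finger transcription factor that works downstream of the growth-regulating kinase complex TORC1. It enters the nucleus in rich nutrients and promotes transcription of the ribosome biogenesis genes (assembly factors, RNA polymerase I and III subunits, translation factors) and, together with Rap1, Fhl1 and Ifh1, of the cytosolic ribosomal protein genes. S. cerevisiae cells without it are small and grow slowly. How the role is shared between a pair of paralogs in C. glabrata is the question that the comparison addresses.

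The C. glabrata libraries held 2549835, 2298815 and 2323311 counts in the CAGL0M09955g deletion, 2300286, 2627029 and 2678841 in the CAGL0D00682g deletion, and 2063182, 2473066 and 2479607 in wild type. Between 39.7% and 45.5% of each library's counts fell on 4 rows with IDs ending in r, a share that overlapped between the groups. Of 5461 genes in the table, 4760 passed the filter on low counts and were tested with edgeR's quasi-likelihood test. A gene is called changed here when its Benjamini-Hochberg adjusted p over all genes tested is below 0.05, and levels are CPM, the counts of a gene scaled to a normalised library of 1e+06 counts. C. glabrata genes are named by the S. cerevisiae members of their orthogroup, and several names joined by slashes mean that the orthogroup holds more than 1 S. cerevisiae gene.

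CAGL0M09955g itself had 0 counts in each of the 3 deletion libraries, against 74, 98 and 118 counts in wild type. With a floor of 3 counts over the deletion group, its level was at least 110.5-fold lower in the deletion. In the libraries of the CAGL0D00682g deletion it had 107, 116 and 103 counts. Its paralog CAGL0D00682g was expressed at 47.3, 45.2 and 56.8 CPM in the deletion libraries, against 36.8, 35.7 and 45.1 CPM in wild type (log2 fold change 0.34 ± 0.13, adjusted p = 0.031 in edgeR's test), so every deletion library was above every wild type library. That small rise of the paralog lost its call with DESeq2 and without wild type replicate A, wild type replicate B or deletion replicate C. Of the nearest genes by ID number, CAGL0M09977g, the orthologue of the tRNA dihydrouridine synthase gene DUS3, fell in the deletion, at 112, 105 and 103 CPM in the deletion libraries, against 183, 161 and 172 CPM in wild type (log2 fold change -0.68 ± 0.08, adjusted p = 4.3e-11). CAGL0M09999g (BUD2/IRA1/IRA2) fell by 0.30 ± 0.08 on the log2 scale (adjusted p = 0.0013; not called with library size alone), CAGL0M09911g (DUS4) had a log2 fold change of -0.21 ± 0.13 and was not called (adjusted p = 0.25), and CAGL0M09933g did not pass the filter.

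Across the genome, genes that make ribosomes and carry out translation were lower in the deletion, and genes of mitochondrial respiration were higher. In all, 715 genes were higher (15% of those tested) and 886 were lower (18.6%) in the CAGL0M09955g deletion than in wild type. Most of these changes were small: the median absolute log2 fold change of the called genes was 0.46, and 82 called genes changed by at least 1 on the log2 scale, 71 higher and 11 lower. The median over all genes tested was 0.02, and the medians by chromosome letter of the ID lay between -0.01 and 0.11. The split between the directions depends on the scaling: when libraries are scaled by their size alone instead of by TMM factors, the median of all genes moves up by 0.16 and the calls become 1276 higher and 468 lower, so all fold changes here are relative to TMM scaling. DESeq2 called 367 higher and 687 lower. Levels are relative to the rest of each library, so a change in total RNA per cell cannot be seen.

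**Figure D1:**
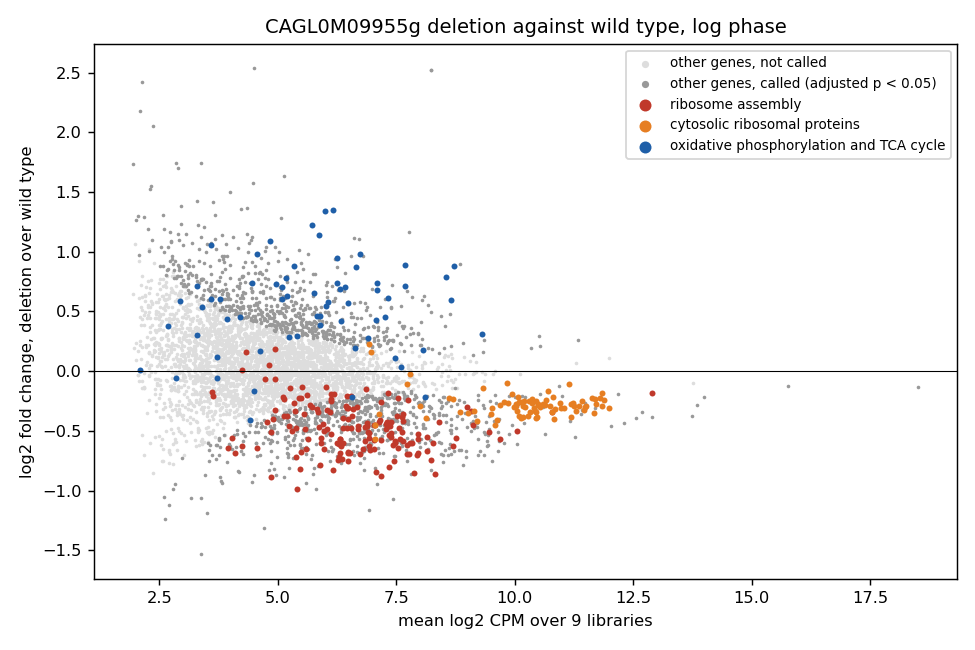
Mean level (log2 CPM over 9 libraries, horizontal axis) against log2 fold change of the CAGL0M09955g deletion over wild type (vertical axis), 1 point for each of the genes tested except CAGL0M09955g itself; light grey points are not called, dark grey points are called, and 3 groups of lists are coloured. Cytosolic ribosomal proteins (orange) lie in a narrow band around -0.29 at high level, ribosome assembly genes (red) lie lower, and genes of oxidative phosphorylation and the TCA cycle (blue) lie mostly above 0.

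The cytosolic ribosomal proteins, the protein part of the ribosome itself, fell together by a small amount. Of the 38 small subunit genes, 34 were lower and 1 was higher, with a median log2 fold change of -0.29, and of the 47 large subunit genes 44 were lower and 0 were higher, also with a median of -0.29. Over all genes tested 18.6% were lower and 15% were higher. The gene that was higher, named after its value was seen, was CAGL0L04510g (RPS28A/RPS28B) at 0.23 ± 0.09, whose reads can be shared with the other RPS28 copy and whose call was lost with DESeq2 and in 5 of the 6 fits that left out a deletion or wild type replicate. RPS15 (CAGL0F01045g), a small subunit protein, was at 605, 603 and 616 CPM in the deletion libraries, against 834, 831 and 825 CPM in wild type (log2 fold change -0.45 ± 0.06, adjusted p = 1.6e-09), and the groups were far apart relative to the spread within each. RPL3 (CAGL0G02079g), a large subunit protein near the peptidyl transferase centre, had 3092, 3195 and 3139.5 CPM in the deletion libraries, against 3795, 3772 and 3967 CPM in wild type (log2 fold change -0.29 ± 0.05, adjusted p = 4.0e-07). RPL8A/RPL8B (CAGL0E03938g) had 1479.8, 1498 and 1541 CPM in the deletion libraries, against 1937, 1955 and 2071 CPM in wild type (log2 fold change -0.40 ± 0.05). For these 3 genes the libraries of each group lay close together and the groups did not overlap. The rule for named genes, given under data processing, required groups apart for RPS15 and RPL8A/RPL8B. RPS3 (CAGL0J11220g), RPL14A/RPL14B (CAGL0M10241g), RPL22A/RPL22B (CAGL0F01683g) and RPP0 (CAGL0G00990g), the base of the ribosomal stalk, fell by 0.30, 0.41, 0.42 and 0.25 on the log2 scale. The calls of RPL3 and RPP0 were lost with library size alone. The lowest value in either list was that of CAGL0H05511g (RPS9A/RPS9B), -0.57 ± 0.08, whose estimated counts were partly fractions and whose reads can be shared with the other RPS9 copy.

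Summed over the 85 cytosolic ribosomal protein genes, the share of all counts was 11.7, 12.01 and 11.9% in the CAGL0M09955g deletion, 13.8% ± 0.356 (SD, n = 3) in the CAGL0D00682g deletion, and 12.9, 12.7 and 13.2% in wild type. The deletion mean was 11.9% ± 0.133, against 12.9% ± 0.271 in wild type (SD, n = 3 each), and the groups did not overlap (exact permutation test, two-sided, p = 0.1, the smallest that 3 against 3 can give). For 157 ribosome assembly genes the share was 1.66% ± 0.0418 in the deletion and 2.13% ± 0.0907 in wild type (SD, n = 3 each), and for 39 genes of oxidative phosphorylation it was 0.465% ± 0.0132 in the deletion and 0.286% ± 0.00281 in wild type (SD, n = 3 each; exact permutation p = 0.1 for both). With library size alone, 17 small subunit and 17 large subunit genes were lower, and the medians of both lists stayed below 0, at -0.13 and -0.13.

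**Figure D2:**
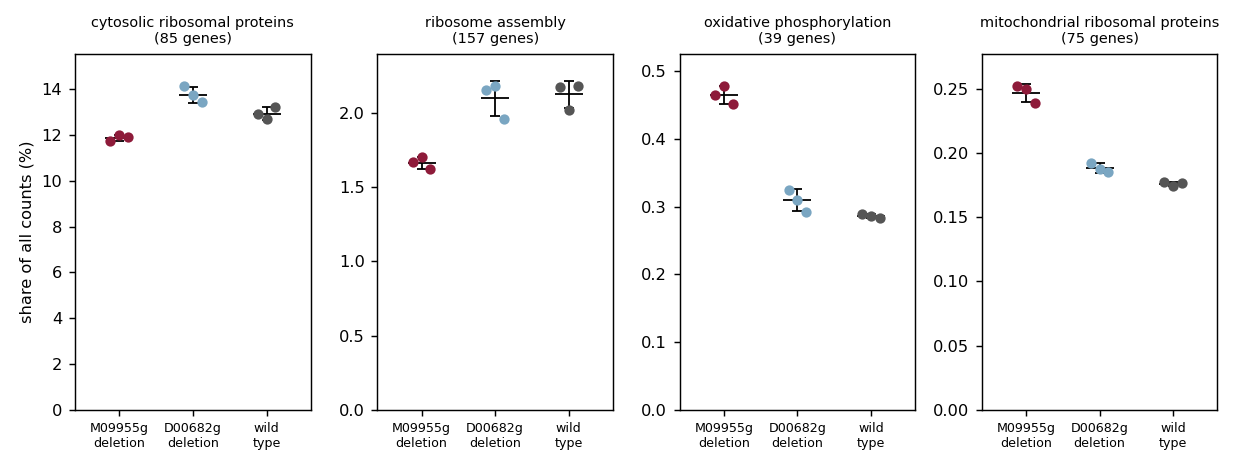
Share of each library's counts (percent, vertical axes from 0) taken by 4 gene lists in the CAGL0M09955g deletion, the CAGL0D00682g deletion and wild type; points are libraries, horizontal bars are means and whiskers are SD (n = 3). The share of cytosolic ribosomal proteins and of ribosome assembly genes is lowest in the CAGL0M09955g deletion, and the share of oxidative phosphorylation and mitochondrial ribosomal protein genes is highest there.

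Genes that assemble the ribosome were also lower, with list medians below those of the ribosomal proteins. In the list of small subunit assembly, 67 of 77 genes tested were lower and 0 were higher (median -0.50), and in that of large subunit assembly 73 of 88 were lower and 0 were higher (median -0.48). RCL1 (CAGL0E02343g), which takes part in cleavage of the ribosomal RNA precursor, had 25.3, 26.2 and 26.6 CPM in the deletion libraries, against 49.7, 45.2 and 59.3 CPM in wild type (log2 fold change -0.99 ± 0.13, adjusted p = 5.3e-09). PWP2 (CAGL0K09284g), a core subunit of the small subunit processome, had 83.96, 96.02 and 105 CPM in the deletion libraries, against 181, 161 and 183 CPM in wild type (log2 fold change -0.88 ± 0.08, adjusted p = 2.1e-14). Every deletion library was below every wild type library for both genes, which the rule that named them required. UTP10 (CAGL0G04411g) and NOP14 (CAGL0J08844g), 2 further processome components, fell by 0.85 ± 0.07 and 0.84 ± 0.08.

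Among large subunit factors, PUF6 (CAGL0I02926g), an RNA-binding protein of early pre-60S particles, had 223, 199 and 214 CPM in the deletion libraries, against 372, 385 and 395 CPM in wild type (log2 fold change -0.86 ± 0.06, adjusted p = 1.8e-17). TIF6 (CAGL0K02497g), which keeps the large subunit from joining the small one too early, had 110.4, 107 and 118 CPM in the deletion libraries, against 174, 192 and 217 CPM in wild type (log2 fold change -0.80 ± 0.08, adjusted p = 1.7e-13). LOC1 (CAGL0F02299g) fell by 0.89 ± 0.15, the DEAD-box helicase gene DBP9 (CAGL0F04983g) by 0.75 ± 0.09 and the GTPase gene NOG2 (CAGL0C03369g) by 0.70 ± 0.07. These values lay within the lower part of the list, whose members spanned -0.89 to 0.18.

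Nucleolar box proteins and the rRNA exosome, which modify and trim ribosomal RNA, gave 18 lower and 0 higher of 31 (median -0.41). RRP6 (CAGL0E02585g), the nuclear exosome's exonuclease, had 55.00, 57.9 and 51.1 CPM in the deletion libraries, against 97.3, 86.1 and 96.5 CPM in wild type (log2 fold change -0.77 ± 0.10). NOP1 (CAGL0K01859g), the fibrillarin methyltransferase, fell by 0.46 ± 0.05, and NOP56 (CAGL0A04015g), its partner in box C/D particles, fell by 0.57 ± 0.05. The exosome subunit MTR3 (CAGL0E03223g) fell by 0.92 ± 0.18, the rRNA methyltransferase RCM1 (CAGL0M06941g) by 0.88 ± 0.14 and NAF1 (CAGL0L04114g), which helps to build box H/ACA particles, by 0.73 ± 0.14.

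The RNA polymerases that transcribe ribosomal RNA and tRNA, with their initiation factors, were lower in 16 and higher in 2 of 40 genes (median -0.28). RRN3 (CAGL0M05203g), which brings RNA polymerase I to the ribosomal DNA promoter, had 40.3, 36.1 and 32.3 CPM in the deletion libraries, against 73.01, 72.8 and 70.2 CPM in wild type (log2 fold change -0.98 ± 0.11, adjusted p = 4.8e-11), among the 15 lowest values under the rule for named genes. RPA190 (CAGL0E05500g), the largest subunit of RNA polymerase I, had 469, 452 and 485 CPM in the deletion libraries, against 737, 708 and 788 CPM in wild type (log2 fold change -0.67 ± 0.06, adjusted p = 3.9e-15). Its partners RPA12 (CAGL0F00561g) and RPA34 (CAGL0I06006g) fell by 0.77 ± 0.16 and 0.67 ± 0.11.

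Translation factors and aminoacyl-tRNA synthetases moved almost as whole lists. Of 41 translation factor genes, 39 were lower and 0 were higher (median -0.47), and of 23 cytosolic tRNA synthetase genes 21 were lower and 1 was higher (median -0.49). The higher one, named after its value was seen, was CAGL0A01760g at 0.51 ± 0.20 (not called with DESeq2 or in 4 of the 6 fits that left out a replicate), in an orthogroup (MSR1/YDR341C) that holds the mitochondrial arginyl synthetase beside the cytosolic one. TIF35 (CAGL0H04675g), a subunit of initiation factor eIF3, had 146, 150.4 and 132 CPM in the deletion libraries, against 232, 236 and 253 CPM in wild type (log2 fold change -0.75 ± 0.07, adjusted p = 1.1e-13). SES1 (CAGL0K11726g), the seryl-tRNA synthetase, had 433, 424 and 416 CPM in the deletion libraries, against 692, 692 and 693 CPM in wild type (log2 fold change -0.71 ± 0.05, adjusted p = 1.0e-16), with the 3 libraries of each group nearly equal. NIP1 (CAGL0M13893g), another eIF3 subunit, SUI2 (CAGL0B03795g), the alpha subunit of eIF2, and the termination factor SUP35 (CAGL0E00781g) fell by 0.66, 0.66 and 0.67. The isoleucyl and prolyl synthetases ILS1 (CAGL0G03311g) and YHR020W (CAGL0A02090g) fell by 0.70 and 0.72. ETT1 (CAGL0L10164g), a factor of translation termination, had one of the largest drops of all, at 101, 105 and 96.5 CPM in the deletion libraries, against 214, 207 and 214 CPM in wild type (log2 fold change -1.07 ± 0.07, adjusted p = 1.3e-18). The abundant elongation factor genes moved little: TEF1/TEF2 fell by 0.19 ± 0.05 in CAGL0D01188g (not called with library size alone) and gave -0.10 ± 0.04 in CAGL0K07832g, which was not called (adjusted p = 0.052), and reads can be shared between them. ACT1 (CAGL0K12694g), the actin gene often used as a control, fell by 0.21 ± 0.05, and this call was lost with library size alone.

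Mitochondrial respiration genes moved the other way. Of 39 genes of oxidative phosphorylation, 32 were higher and 0 were lower (median 0.60), and of 28 genes of the TCA and glyoxylate cycles 14 were higher and 2 were lower (median 0.43). LSC2 (CAGL0F08107g) and LSC1 (CAGL0I07139g), the subunits of succinyl-CoA ligase, rose the most among named genes of these lists. LSC2 had 107, 118 and 114 CPM in the deletion libraries, against 40.7, 46.5 and 44.7 CPM in wild type (log2 fold change 1.35 ± 0.10, adjusted p = 1.8e-17). LSC1 had 95.7, 102 and 91.98 CPM in the deletion libraries, against 38.7, 41.3 and 34.2 CPM in wild type (log2 fold change 1.34 ± 0.10, adjusted p = 1.0e-16). For both genes every deletion library lay above every wild type library, which the rule that named them required. The gap was wider than the range within either group. MDH1 (CAGL0L05236g), the mitochondrial malate dehydrogenase, had 90.6, 98.8 and 82.98 CPM in the deletion libraries, against 33.3, 40.9 and 48.03 CPM in wild type (log2 fold change 1.14 ± 0.11, adjusted p = 1.5e-13). CAGL0C03223g, 1 of 2 copies of the succinate dehydrogenase iron-sulfur subunit SDH2, had 37.03, 44.04 and 35.97 CPM in the deletion libraries, against 16.4, 18.5 and 19.6 CPM in wild type (log2 fold change 1.09 ± 0.15, adjusted p = 3.3e-08). CAGL0B02431g, of the NADH dehydrogenase orthogroup NDE1/NDE2/NDI1, rose by 1.23 ± 0.11, the membrane anchor SDH3/SHH3 (CAGL0D01958g) by 0.98 ± 0.08 and the cytochrome oxidase subunit COX8 (CAGL0C02623g) by 0.98 ± 0.17.

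The rise followed the cycle unevenly. Members of the TCA and glyoxylate list spanned -0.41 to 1.35, and the 2 called lower are not named here. Further enzymes with a single S. cerevisiae name, chosen after their values were seen, gave 0.88 ± 0.06 for the aconitase ACO1 (CAGL0D06424g), 0.71 ± 0.07 and 0.89 ± 0.07 for the isocitrate dehydrogenase subunits IDH1 (CAGL0G02673g) and IDH2 (CAGL0I07227g), and 0.87 ± 0.09 and 0.95 ± 0.10 for the ketoglutarate dehydrogenase subunits KGD1 (CAGL0G08712g) and KGD2 (CAGL0E01287g), and all 5 were called. Fumarase (FUM1, CAGL0A01045g) rose by 0.18 ± 0.06 (adjusted p = 0.028), a call lost with DESeq2 and without replicate B of either group. Citrate synthase, which opens the cycle, was not called in either gene of the CIT1/CIT2 orthogroup, which had 187, 185 and 202 CPM in the deletion libraries, against 165, 178 and 185 CPM in wild type, in CAGL0H03993g (log2 fold change 0.11 ± 0.07), and gave 0.12 ± 0.22 in the weakly expressed CAGL0B03663g.

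Mitochondrial ribosomal proteins gave 30 higher and 0 lower of 75 genes (median 0.32), in the direction opposite to their cytosolic counterparts. MRPL8 (CAGL0J05258g) had 86.5, 88.1 and 71.5 CPM in the deletion libraries, against 52.1, 52.1 and 55.5 CPM in wild type (log2 fold change 0.62 ± 0.11), and MHR1 (CAGL0H01353g) and RSM28 (CAGL0G04675g) rose by 0.78 ± 0.13 and 0.79 ± 0.18. The count fell to 18 without wild type replicate C and to 10 with DESeq2, and came to 49 with library size alone, while the median stayed between 0.32 and 0.48 across those scalings. SOD2 (CAGL0E04356g), the mitochondrial superoxide dismutase, had 60.5, 64.7 and 62.5 CPM in the deletion libraries, against 29.8, 37.03 and 32.6 CPM in wild type (log2 fold change 0.91 ± 0.12, adjusted p = 2.4e-09), and the mitochondrial peroxiredoxin PRX1 (CAGL0A04433g) rose by 0.83 ± 0.12.

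Of 29 genes of glycolysis and fermentation, 14 were lower and 7 were higher, and the median, -0.11, turned to 0.05 with library size alone. The 4 glycolytic genes with a single S. cerevisiae name, chosen after their values were seen, were all lower: TPI1 (CAGL0H08327g), PGK1 (CAGL0L07722g), FBA1 (CAGL0L02497g) and PGI1 (CAGL0H05445g) fell by 0.55, 0.44, 0.39 and 0.30. The abundant pyruvate decarboxylase copy CAGL0M07920g (PDC1/PDC5/PDC6/THI3) had 11460.0, 11181 and 11724 CPM in the deletion libraries, against 14607, 14348 and 15589 CPM in wild type (log2 fold change -0.37 ± 0.04). Other copies were higher. The alcohol dehydrogenase copy CAGL0H06853g (ADH1/ADH2/ADH3/ADH5/ADH6/ADH7) had 330.0, 348 and 369 CPM in the deletion libraries, against 234, 248 and 231 CPM in wild type (log2 fold change 0.55 ± 0.06, adjusted p = 1.3e-10). The acetaldehyde dehydrogenase copy CAGL0D06688g (ALD4/ALD5/ALD6) had 130.2, 131 and 138 CPM in the deletion libraries, against 73.01, 66.7 and 65.99 CPM in wild type (log2 fold change 0.96 ± 0.09, adjusted p = 1.9e-14), and the pyruvate kinase copy CAGL0E05610g (CDC19/PYK2) and the phosphofructokinase copy CAGL0I05698g (PFK1/PFK2) rose by 0.73 ± 0.15 and 0.58 ± 0.13.

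Genes of the list of hexose transport and sensing were higher in 7 and lower in 4 of 21 (median 0.21). Their reads can be shared between near-identical copies, so their values are uncertain. The shares over all genes tested were 15% higher and 18.6% lower. Only 1 of the 24 genes in the hexose list had all its S. cerevisiae names in it. The copies named next belong to an orthogroup that holds HXT names beside ITR1, MAL11 and STL1. They were picked for the size of their change and do not stand for the list, in which more genes were higher than lower. CAGL0A01804g had 68.2, 59.5 and 73.6 CPM in the deletion libraries, against 157, 135 and 160.4 CPM in wild type (log2 fold change -1.17 ± 0.09, adjusted p = 7.3e-17), while CAGL0A02233g of the same family had 90.2, 63.9 and 70.7 CPM in the deletion libraries, against 37.7, 40.9 and 35.9 CPM in wild type (log2 fold change 0.98 ± 0.12, adjusted p = 6.3e-10). CAGL0A01782g and CAGL0A02321g fell by 0.75 ± 0.06 and 0.52 ± 0.09. Genes of trehalose and glycogen, the storage carbohydrates, were higher in 9 and lower in 1 of 17 (median 0.46), a count that was 3 with DESeq2 and 5 without wild type replicate C. Glycogen phosphorylase GPH1 (CAGL0F04895g) had 40.3, 43.6 and 46.2 CPM in the deletion libraries, against 29.3, 27.99 and 25.9 CPM in wild type (log2 fold change 0.65 ± 0.13, adjusted p = 5.6e-05), and the glycogen synthase copy CAGL0K10626g (GSY1/GSY2) rose by 0.68 ± 0.14. The trehalose synthase orthogroup TPS1/TPS3/TSL1 was not called in any of its 3 members, with log2 fold changes of 0.29, -0.11 and 0.14.

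**Figure D3:**
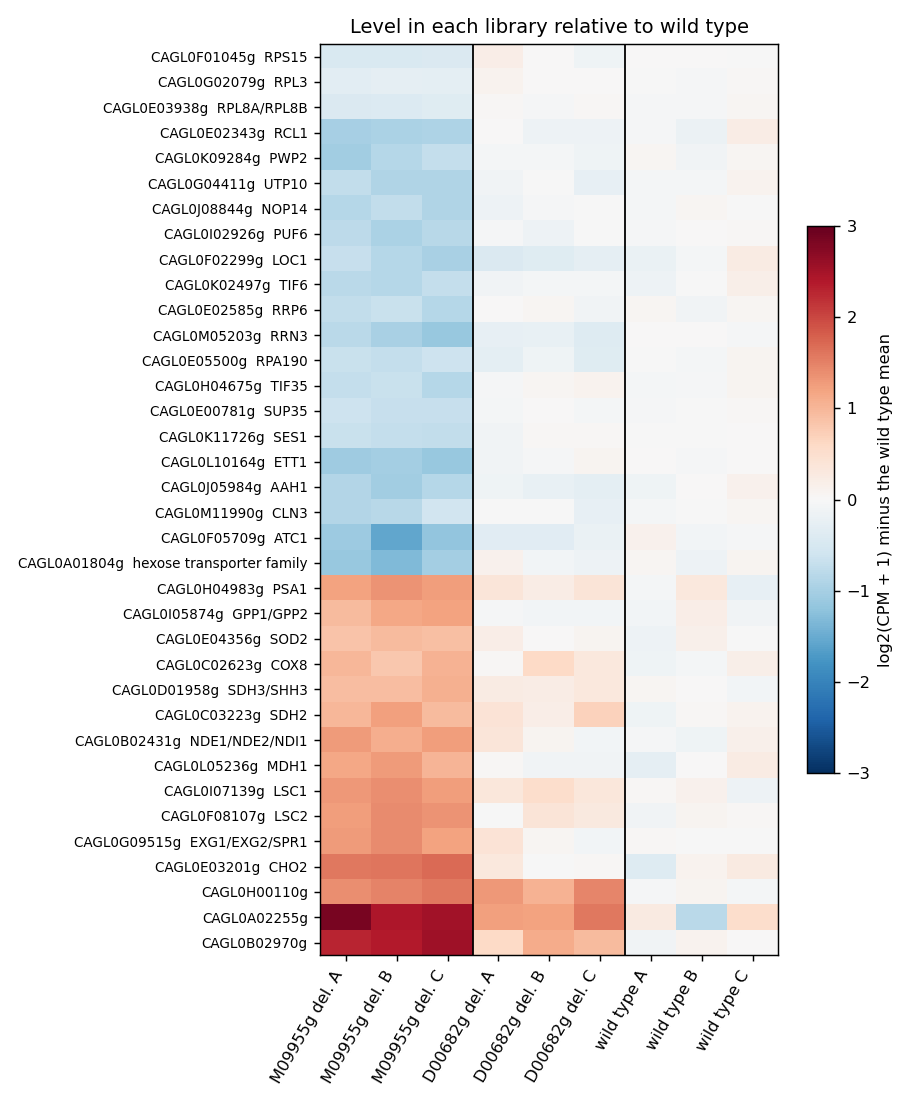
Level of 36 named genes in each of the 9 C. glabrata libraries, as log2(CPM + 1) minus the wild type mean (colour, blue lower and red higher); columns are replicates A to C of the CAGL0M09955g deletion, the CAGL0D00682g deletion and wild type. The ribosome and translation genes are blue and the respiration genes red in all 3 CAGL0M09955g deletion libraries, and the 3 genes in the bottom rows are also red, less so in 2 of them, in the CAGL0D00682g deletion.

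Of 60 genes of amino acid synthesis, 27 were lower and 9 were higher (median -0.19), with 16 lower under library size alone. Over all genes tested 18.6% were lower and 15% were higher, so the count of higher genes is no result about the list. CAGL0C01573g (ARO3/ARO4), which starts aromatic amino acid synthesis, had 252, 250.4 and 235 CPM in the deletion libraries, against 434, 381 and 434 CPM in wild type (log2 fold change -0.76 ± 0.06, adjusted p = 1.4e-15). The glutamate dehydrogenase copy CAGL0D00176g (GDH1/GDH3) and the homoserine kinase THR1 (CAGL0J00649g) fell by 0.70 ± 0.06 and 0.71 ± 0.07, and the aromatic aminotransferase copy CAGL0G06028g (ARO8/ARO9) rose by 0.60 ± 0.07. In purine and pyrimidine synthesis 8 genes were lower and 7 were higher of 22, and the median, -0.10, turned to 0.06 under library size alone. GUA1 (CAGL0F03927g), the GMP synthase, had 665, 649 and 653 CPM in the deletion libraries, against 1014, 975 and 1005 CPM in wild type (log2 fold change -0.61 ± 0.05, adjusted p = 2.9e-15), the CTP synthase copy CAGL0F04433g (URA7/URA8) fell by 0.70 ± 0.06, and the adenine deaminase AAH1 (CAGL0J05984g), which salvages adenine, fell by 0.94 ± 0.08. ADE8 (CAGL0F02761g) and CAGL0K00913g (ADE3/MIS1), of the purine and one-carbon routes, rose by 0.55 and 0.54, the first of these a call lost with DESeq2 and without wild type replicate A or deletion replicate C.

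Among the 15 highest called genes of the rule for named genes, the 3 highest values belonged to genes with no S. cerevisiae name. CAGL0B02970g had 38.5, 40.9 and 45.8 CPM in the deletion libraries, against 6.46, 7.75 and 7.10 CPM in wild type (log2 fold change 2.54 ± 0.19, adjusted p = 1.8e-17). CAGL0A02255g and CAGL0A02277g had identical values in every library, 656, 484 and 520.0 CPM in the deletion and 109, 50.8 and 129 CPM in wild type (log2 fold change 2.53 ± 0.12 for each), and they are taken here as a single uncertain measurement. CAGL0H00110g had 26.8, 28.96 and 31.1 CPM in the deletion libraries, against 9.44, 10.3 and 9.19 CPM in wild type (log2 fold change 1.57 ± 0.19, adjusted p = 3.8e-10). In the CAGL0D00682g deletion these 4 genes had log2 fold changes over the same wild type libraries of 0.99, 1.26, 1.26 and 1.35, all called. Among named genes CHO2 (CAGL0E03201g), the methyltransferase that starts phosphatidylcholine synthesis from phosphatidylethanolamine, had 58.7, 59.9 and 64.2 CPM in the deletion libraries, against 14.4, 20.7 and 22.97 CPM in wild type (log2 fold change 1.63 ± 0.14, adjusted p = 2.6e-15). Its groups did not overlap, which the rule that named it required. PSA1 (CAGL0H04983g), of the GDP-mannose pathway, rose by 1.29 ± 0.14, the calmodulin-dependent kinase copy CAGL0K10604g (CMK1/CMK2) by 1.36 ± 0.21 and CAGL0H00825g (YPL245W) by 1.15 ± 0.18. The glycerol-3-phosphatase orthogroup GPP1/GPP2 held copies that moved apart: CAGL0I05874g had 146, 169 and 174 CPM in the deletion libraries, against 71.02, 86.1 and 69.3 CPM in wild type (log2 fold change 1.104 ± 0.09, adjusted p = 9.8e-17), and CAGL0M12430g, whose estimated counts were partly fractions, had 327, 328 and 314 CPM in the deletion libraries, against 563, 546 and 568 CPM in wild type (log2 fold change -0.79 ± 0.06, adjusted p = 7.5e-18).

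Among the 15 lowest called genes of the rule for named genes, CAGL0F05709g (ATC1) had the lowest fold change after CAGL0M09955g. It had 15.8, 11.1 and 14.7 CPM in the deletion libraries, against 37.7, 32.7 and 33.8 CPM in wild type (log2 fold change -1.31 ± 0.16, adjusted p = 1.1e-09). The genes not yet described among the 15 lowest were CAGL0L11880g (GIS1/RPH1), of JmjC-domain transcription regulators, CAGL0B00792g (SLF1/SRO9), of La-motif RNA-binding proteins, CAGL0F04103g (YBL028C) and CAGL0K06809g (YBR220C), which fell by 0.94, 0.86, 0.87 and 0.87. Cell wall and glucan genes were higher in 13 and lower in 8 of 69, beside 15% higher and 18.6% lower over all genes tested. The exoglucanase copy CAGL0G09515g (EXG1/EXG2/SPR1) had 31.2, 34.1 and 29.4 CPM in the deletion libraries, against 12.4, 12.1 and 12.1 CPM in wild type (log2 fold change 1.37 ± 0.17, adjusted p = 2.0e-09), whereas its family member CAGL0M08756g fell by 0.52 ± 0.15 (not called with library size alone). CAGL0E01793g, of the aspartyl protease orthogroup BAR1/MKC7/YPS1, rose by 1.04 ± 0.15, and CAGL0J11891g, in an orthogroup with the FLO cell surface proteins, had 354, 349.6 and 336 CPM in the deletion libraries, against 192, 124 and 150.4 CPM in wild type (log2 fold change 1.16 ± 0.08, adjusted p = 6.9e-19).

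Stress genes did not move as a block. Heat shock chaperones were higher in 5 and lower in 12 of 27: CAGL0M06083g, of the HSP70 orthogroup, had 777, 809.8 and 797 CPM in the deletion libraries, against 1190.0, 1161 and 1278 CPM in wild type (log2 fold change -0.61 ± 0.05, adjusted p = 3.6e-15), the disaggregase HSP104 (CAGL0G03883g) fell by 0.47 ± 0.11 and the mitochondrial co-chaperonin HSP10 (CAGL0H08283g) rose by 0.53 ± 0.12. General stress genes were higher in 8 and lower in 6 of 26. Over all genes tested 15% were higher and 18.6% were lower, and no list was tested against these shares. Of 32 proteasome genes 1 was higher and 0 were lower, and their median was 0.03; the gene that was higher, named after its value was seen, was PRE6 (CAGL0F01199g), a subunit of the core particle, at 0.37 ± 0.09. Histone genes were higher in 10 of 12 with 0 lower (median 0.26), among them the H2A variant HTZ1 (CAGL0E02315g) at 0.53 ± 0.12 and the linker histone HHO1 (CAGL0M02783g) at 0.48 ± 0.10. In the G1/S list 1 gene was higher and 2 were lower of 34. CLN3 (CAGL0M11990g), the cyclin that starts the G1/S programme, was lower, at 68.6, 70.2 and 84.6 CPM in the deletion libraries, against 122, 126 and 132 CPM in wild type (log2 fold change -0.77 ± 0.09, adjusted p = 8.1e-11). The other gene lower there, named after its value was seen, was the weakly expressed cyclin copy CAGL0M11066g (CLB3/CLB4/CLB5/CLB6), at 6.23, 6.35 and 6.95 CPM in the deletion libraries, against 14.9, 15.1 and 14.6 CPM in wild type (log2 fold change -1.19 ± 0.24). CAGL0K05643g (SRL3/WHI5), of the G1/S repressors, rose by 0.45 ± 0.18, a call lost with DESeq2 and without wild type replicate B or deletion replicate B or C.

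Peroxisome and fatty acid oxidation genes were higher in 7 and lower in 2 of 31, with the peroxisome division gene PEX11 (CAGL0D02618g) at 36.3, 44.04 and 50.7 CPM in the deletion libraries, against 25.3, 18.5 and 20.05 CPM in wild type (log2 fold change 1.04 ± 0.15, adjusted p = 1.1e-07). Ergosterol genes were higher in 5 and lower in 7 of 25; ERG24 (CAGL0I02970g) rose by 0.54 ± 0.08 and ERG28 (CAGL0J02684g) fell by 0.83 ± 0.16. The phosphate regulon had 5 higher and 1 lower of 15, the iron regulon 2 and 3 of 25, sulfur and methionine genes 6 and 9 of 31, autophagy genes 3 and 1 of 18, aromatic amino acid breakdown 4 and 2 of 11, and multidrug and oxidative response genes 7 and 9 of 32. The shares over all genes tested were 15% higher and 18.6% lower, and these small lists were not tested against them. Mating and haploid-specific genes had 3 higher and 0 lower of 31 tested and 45 in the table, the 3 being CAGL0E01727g and CAGL0E01793g of the aspartyl protease orthogroup and CAGL0K04169g (FUS3/KSS1), and the call of CAGL0E01727g was lost with DESeq2 and in 4 of the 6 fits that left out a replicate. Genes often used as auxotrophic markers had 3 higher and 0 lower of 7, with MET17 (CAGL0D06402g) at 0.72 ± 0.17 and URA3 (CAGL0I03080g) at 0.48 ± 0.15 (not called with DESeq2 or without wild type replicate A), and none of them stood at 0 in a deletion library.

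Of 44 genes of TORC1 signalling and ribosomal gene control, 6 were higher and 9 were lower, CAGL0M09955g among the lower ones. These counts lie near the 15% higher and 18.6% lower of all genes tested, so they are no result about the list as a whole. The ribosomal protein gene regulators FHL1 (CAGL0G01782g) and CRF1/IFH1 (CAGL0C00759g) fell by 0.27 ± 0.09 and 0.46 ± 0.08, and the call of FHL1 was lost with library size alone, with DESeq2 and without wild type replicate C or deletion replicate B. RAP1 (CAGL0K04917g) gave 0.06 ± 0.11, HMO1 (CAGL0E00737g) 0.17 ± 0.07 and the kinase SCH9 (CAGL0F09075g) -0.01 ± 0.09, none of them called. GCR1 (CAGL0H05379g), an activator of glycolytic genes in S. cerevisiae, fell by 0.43 ± 0.10. MRS6 (CAGL0J07260g), whose S. cerevisiae protein binds Sfp1, had 70.4, 89.7 and 82.98 CPM in the deletion libraries, against 128, 140.4 and 119 CPM in wild type (log2 fold change -0.68 ± 0.09, adjusted p = 2.8e-09). CAGL0M13189g, in the orthogroup COM2/MSN2/MSN4/NRG1/NRG2 of zinc finger factors that include stress activators, had 15.8, 14.3 and 16.4 CPM in the deletion libraries, against 6.46, 6.46 and 7.10 CPM in wild type (log2 fold change 1.204 ± 0.25, adjusted p = 5.7e-05), at a low level. CAGL0J11308g, of the NPR1 kinase orthogroup, rose by 0.82 ± 0.16, and the DOT6/TOD6 repressors moved apart, CAGL0I05060g by 0.46 ± 0.16 and CAGL0A04257g by -0.22 ± 0.07, both called, and both lost with DESeq2 and without wild type replicate C or deletion replicate C.

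The deletion of the other paralog gave a different picture. Set against the same 3 wild type libraries, the CAGL0D00682g deletion had 18 genes higher (0.378%) and 9 lower (0.189%), and 461 genes had an unadjusted p under 0.05. The lower genes included CAGL0D00682g itself, RPA190 (log2 fold change -0.26 ± 0.06, adjusted p = 0.0086) and YHR020W (-0.21 ± 0.06, adjusted p = 0.046 in edgeR's test). In the RNA polymerase list 1 of 40 genes was lower, and in the tRNA synthetase list 2 of 23, with 0 higher in both. The lists of cytosolic ribosomal proteins, ribosome assembly and translation factors had 0 calls. Ribosomal protein values nevertheless lay almost all slightly above 0, with 5.3% of small and 0% of large subunit genes below 0. Since both deletions share these wild type libraries, the test of their difference is the direct contrast, CAGL0M09955g deletion over CAGL0D00682g deletion. In it, 586 genes were higher (12.3%) and 817 were lower (17.2%). DESeq2 called 291 higher in this contrast, and library size alone gave 1153 higher and 454 lower.

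The cytosolic ribosomal proteins differed between the deletions in 36 of 38 small subunit and 47 of 47 large subunit genes, all lower in the CAGL0M09955g deletion. Against wild type their medians were -0.29 in the CAGL0M09955g deletion and 0.09 in the CAGL0D00682g deletion for the small subunit, and -0.29 and 0.08 for the large. The direct contrast thus holds both the fall in the CAGL0M09955g deletion and the small uncalled rise in the CAGL0D00682g deletion. Ribosome assembly genes were lower in 69 of 77 and 77 of 88, and translation factors in 37 of 41, with 1 higher. Oxidative phosphorylation genes were higher in 31 of 39. Mitochondrial ribosomal protein genes were higher in 14 of 75 and not called in 61, beside 12.3% of all genes tested that were higher. PUF6 (CAGL0I02926g) had 223, 199 and 214 CPM in the CAGL0M09955g deletion and 374, 347 and 381 CPM in the CAGL0D00682g deletion (log2 difference -0.79 ± 0.06, adjusted p = 4.1e-16 in edgeR's test), and LSC2 (CAGL0F08107g) had 107, 118 and 114 CPM in the CAGL0M09955g deletion and 43.8, 57.6 and 53.8 CPM in the CAGL0D00682g deletion (1.12 ± 0.09, adjusted p = 4.6e-15). The values of these genes do not overlap between the deletions.

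Among the largest differences between the deletions, beside the deleted genes themselves, were CHO2 (CAGL0E03201g, log2 difference 1.56 ± 0.13), CAGL0B02970g (1.54 ± 0.16), the HXT orthogroup copy CAGL0A02233g (1.28 ± 0.12) and MDH1 (CAGL0L05236g, 1.23 ± 0.11) on the higher side. On the lower side were the HXT orthogroup copy CAGL0A01804g (-1.13 ± 0.09), ETT1 (CAGL0L10164g, -1.05 ± 0.07), the export factor ECM1 (CAGL0D00220g, -0.98 ± 0.17), the exonuclease REX4 (CAGL0I07931g, -1.01 ± 0.18) and the GDH1/GDH3 copy CAGL0D00176g (-0.89 ± 0.06). CAGL0H00110g, raised over wild type in the CAGL0M09955g deletion, had a log2 difference of 0.22 ± 0.15 between the deletions and was not called (adjusted p = 0.28), which does not show that they act alike. Of the 12 histone genes, 2 were higher in the CAGL0M09955g deletion and 0 were lower, beside 12.3% higher over all genes tested.

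**Figure D4:**
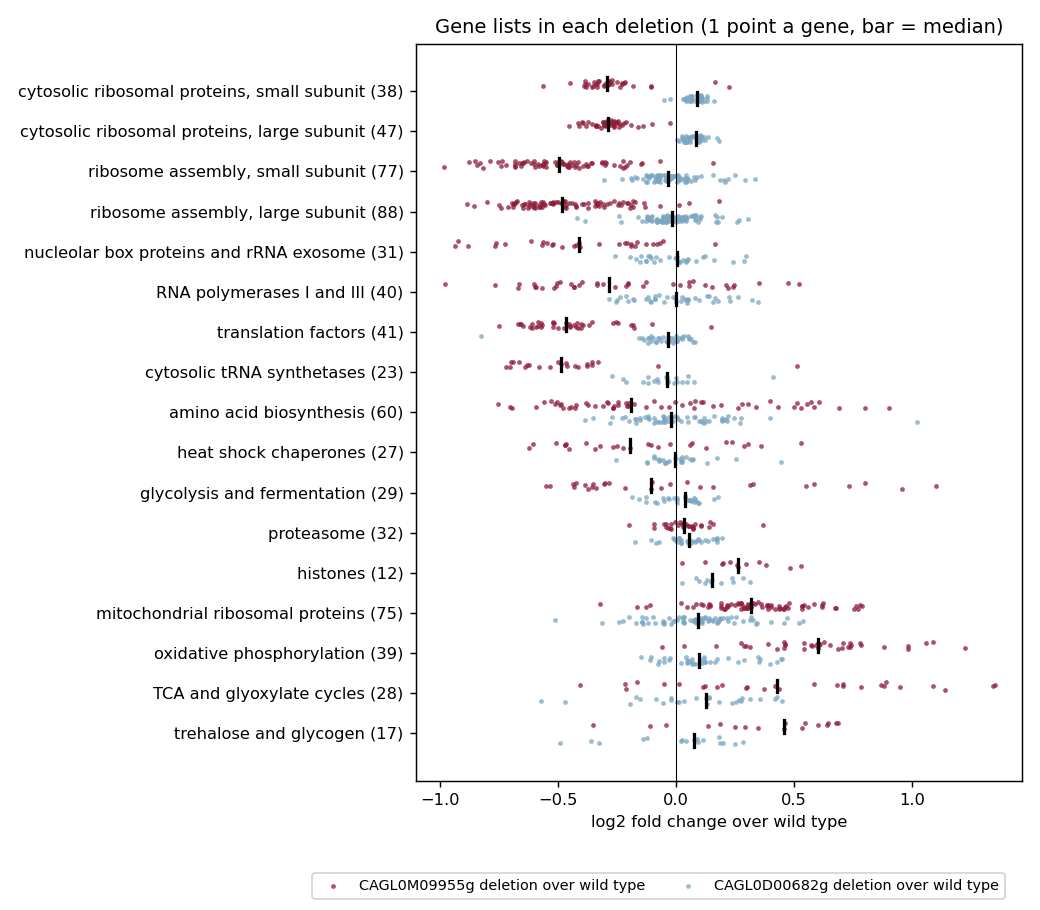
Log2 fold change over the same 3 wild type libraries (horizontal axis) for genes of 17 lists, in the CAGL0M09955g deletion (dark red) and the CAGL0D00682g deletion (blue), 1 point a gene and a black bar at each median, with the number of genes tested in brackets. The CAGL0M09955g deletion medians of the ribosome and translation lists lie between -0.28 and -0.50 and that of oxidative phosphorylation at 0.60, while the CAGL0D00682g deletion medians lie between -0.04 and 0.15.

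S. cerevisiae has a single SFP1 gene, and its deletion in log phase was compared over 3281 orthogroups with 1 gene in each species. The test asked where the effect of the CAGL0M09955g deletion differed from that of the S. cerevisiae sfp1 deletion, each against its own wild type. The C. glabrata effect was above the S. cerevisiae effect in 658 orthogroups (20.1%) and below it in 548 (16.7%), by edgeR's test of the interaction. Translation factors were lower in both species, with medians of -0.52 in the C. glabrata deletion and -0.93 in the S. cerevisiae deletion, and the C. glabrata effect was above the S. cerevisiae one in 19 of 26 and below it in 1. The tRNA synthetases gave -0.49 in C. glabrata and -1.09 in S. cerevisiae, with 17 of 20 above and 1 below. Trehalose and glycogen genes had medians of 0.61 in C. glabrata and -0.50 in S. cerevisiae, with 4 of 5 above, and the phosphate regulon 0.19 in C. glabrata and -0.44 in S. cerevisiae, with 8 of 11 above. The few ribosomal protein genes with 1 copy in each species, 9 of the small and 10 of the large subunit, gave -0.29 and -0.29 in C. glabrata and -0.93 and -0.88 in S. cerevisiae, with the C. glabrata effect above the other in 9 and 8 of them.

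The list medians of ribosome assembly were closer between the species, though many single genes still differed. Over all orthogroups tested, the C. glabrata effect was above the other in 20.1% and below it in 16.7%. Small subunit factors had medians of -0.49 in C. glabrata and -0.60 in S. cerevisiae, and the effects differed in 23 (above) and 8 (below) of 72; large subunit factors had -0.52 in C. glabrata and -0.62 in S. cerevisiae, with 22 above and 10 below of 75. Nucleolar box and exosome genes differed the other way, with a median of -0.42 in C. glabrata and -0.07 in S. cerevisiae and 11 of 29 below and 4 above. The mitochondrial lists lay apart. Mitochondrial ribosomal proteins had a median of 0.34 in C. glabrata, where 29 were higher and 0 were lower, and -0.33 in S. cerevisiae, where 7 were higher and 38 were lower, and the effects differed in 47 of 69, all above. Oxidative phosphorylation genes had 0.61 in C. glabrata and 0.03 in S. cerevisiae, with 18 of 27 above and 2 below.

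Levels in this comparison are CPM over the shared orthogroups, a different scale from the one above. GPH1 (CAGL0F04895g), glycogen phosphorylase, had 179, 195 and 207 CPM in the C. glabrata deletion, against 131, 123 and 116 CPM in its wild type, and 21.9, 28.6 and 24.2 CPM in the S. cerevisiae deletion, against 309, 298 and 289 CPM in its wild type. The effects were of opposite sign and differed by 4.23 ± 0.19 on the log2 scale (adjusted p = 5.3e-45, edgeR). MDH1 (CAGL0L05236g) had 403, 441 and 372 CPM in the C. glabrata deletion, against 149, 180.3 and 215 CPM in its wild type, and 272, 294 and 310.0 CPM in the S. cerevisiae deletion, against 675, 621 and 641 CPM in its wild type, again with opposite signs (difference 2.28 ± 0.13). ARO10 (CAGL0A03102g), a decarboxylase of aromatic amino acid breakdown, was higher in both, with log2 fold changes of 0.37 in C. glabrata and 2.90 in S. cerevisiae. The proline oxidase PUT1 (CAGL0M04499g) gave 0.28 in C. glabrata and 3.53 in S. cerevisiae, PDH1 (CAGL0L09108g) 0.94 and 3.65, and the haem oxygenase HMX1 (CAGL0A03905g) -0.01 and 2.20. The methionine synthase MET6 (CAGL0I04994g) gave 0.24 in C. glabrata and -2.05 in S. cerevisiae, the nicotinamidase PNC1 (CAGL0A01716g) 0.56 and -1.55, CAGL0H00825g (YPL245W) 1.16 and -1.36, and DPC29 (CAGL0D04070g) 1.13 and -1.07. The other 6 orthogroups among the 8 highest and 8 lowest differences each had at least 1 library at 0 counts and are given no fold here. The C. glabrata deletion kept the paralog CAGL0D00682g, while the S. cerevisiae deletion lost its only SFP1 gene. Species, genome annotation, culture and this difference in what was deleted cannot be told apart in this comparison.

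**Figure D5:**
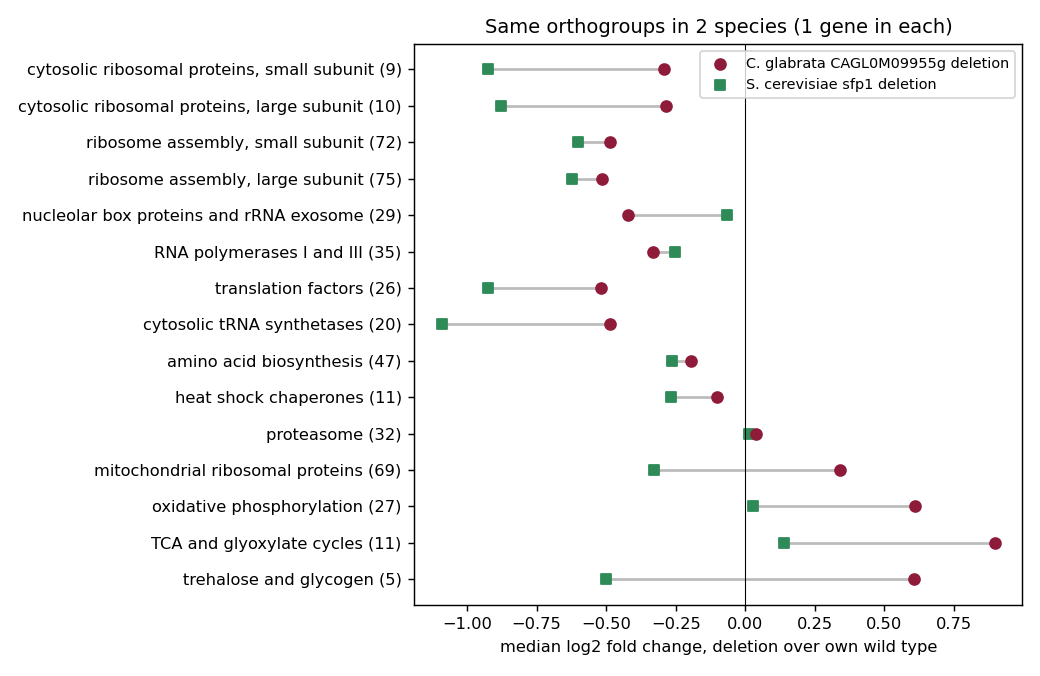
Median log2 fold change of 15 gene lists (horizontal axis) over orthogroups with 1 gene in each species, in the C. glabrata CAGL0M09955g deletion (dark red circles) and the S. cerevisiae sfp1 deletion (green squares), each over its own wild type; brackets give the number of orthogroups. Both medians of the ribosome and translation lists lie below 0, and the mitochondrial ribosomal protein medians lie on opposite sides of 0, at 0.34 in C. glabrata and -0.33 in S. cerevisiae.

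The authors' deposited table of log ratios also holds columns t30, t60 and t90 for the CAGL0M09955g deletion, which the labels describe as microarray values. Neither the base of the logarithm nor the number of arrays is stated, so these values are descriptions with no error, with the sign turned to deletion over wild type. In the authors' deposited table CAGL0M09955g itself stood at -6.66, -7.72 and -9.24. The median of the ribosome assembly genes was below 0 at all 3 times in the authors' deposited table, at -0.72, -0.62 and -0.48 for the small subunit list and -0.75, -0.61 and -0.43 for the large. Of 79 small subunit and 86 large subunit assembly genes in the authors' deposited table, 0 and 4 were above 0 at t30, 0 and 6 at t60, and 2 and 7 at t90. The medians of all genes there lay between 0.00 and 0.01. Cytosolic ribosomal protein genes had medians of -0.05, -0.11 and 0.02 for the small subunit in the authors' deposited table, closer to 0 than in the log phase libraries. Proteasome genes, flat in log phase, had medians of 1.61, 1.25 and 0.69 in the authors' deposited table, with 0 of 32 genes below 0 at t30. Trehalose and glycogen genes, mostly raised in log phase, had medians of -0.90, -0.59 and -0.01 in the authors' deposited table, and oxidative phosphorylation genes 0.41, 0.34 and 0.49. Genes of the TCA and glyoxylate cycles had medians of -0.40, -0.40 and -0.12 in the authors' deposited table, with 23 of 32 genes below 0 at t30, against a log phase median of 0.43 in the libraries. CHO2 (CAGL0E03201g) stood at 1.59, 2.23 and 1.97 there. The arrays and the sequencing libraries differ in platform, time and scale, and their difference was not tested.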

How the data were processed

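RNA sequencing was analysed from the authors' deposited table of expected counts per C. glabrata gene, and from their table for S. cerevisiae. Per the submitters' processing notes, Bowtie (version 1), RSEM (version 1.2.11) and edgeR were used; the C. glabrata genome build is not given in the sources used here. Libraries were paired-end polyA RNA, per the labels' protocols. RSEM estimates counts, and 96.4% of the deposited C. glabrata values were whole to within 1e-06; they were rounded. The table's 4 rows with IDs ending in r were kept. The 3 count columns that match no sample of the labels were not used. The deposited log ratios (other unit: base not given for the microarray columns) are wild type over deletion, as a slope of -1.00 on the log2 fold changes computed here shows over 4682 genes; their sign was turned.

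All 9 C. glabrata libraries entered a single fit with edgeR 4.0.16 in R 4.3.3: filterByExpr by group, TMM factors, glmQLFit and glmQLFTest, Benjamini-Hochberg adjustment over all genes tested, calls at adjusted p below 0.05. The SE of a log2 fold change is its size divided by the square root of F. The species comparison fitted the interaction over orthogroups with 1 gene in each species. Share of counts was compared with an exact permutation test. The code was tested on simulated data.

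Orthogroup names come from the authors' deposited orthology table with S. cerevisiae symbols of assembly R64: 4935 of 5461 genes had a name. A gene belongs to a list if any of its names does. Named genes were CAGL0M09955g, CAGL0D00682g, the 2 genes on either side by ID, a panel of 15 and all members of the regulator list. Added to these were the 15 highest and 15 lowest called genes and up to 4 called members of each of 33 lists. The 8 highest and 8 lowest called differences between deletions and between species were named too. Genes of these added sets had mean log2 CPM of at least 4 and groups apart. Between species, the replicate effects of the 2 deletions had to lie apart, not the groups within a species. The experiment, members and lists were chosen with earlier results of these data known. Alternatives were RLE factors, library size alone, no filter, mean log2 CPM of at least 4, DESeq2 1.42.0, the 6 libraries of a contrast alone, a replicate block, leaving out each replicate and, chosen after seeing the data, leaving out the rows with IDs ending in r. C. glabrata genome, promoter and protein sequences were not used here.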

Additional observations from a re-analysis of the deposited data

Results flagged for a closer look

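The results that stood out were differences in deletion effect between the 2 species, each tested with edgeR's interaction contrast. The deletions are unlike: a paralog remained in C. glabrata, and S. cerevisiae lost its only SFP1 gene. The effect of the CAGL0M09955g deletion in C. glabrata was above that of the sfp1 deletion in S. cerevisiae in 658 orthogroups and below it in 548. Above it were GPH1 by 4.23, YPL245W by 2.52, MDH1 by 2.28, MET6 by 2.28, DPC29 by 2.20 and PNC1 by 2.11 on the log2 scale. Below it were PUT1 at -3.25, PDH1 at -2.71, ARO10 at -2.54 and HMX1 at -2.20. The groups hold 3 libraries each, so no single library was examined as standing apart within a group.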

How the results depend on the processing

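Library size alone gave 1276 higher and 468 lower against wild type, 1153 higher and 454 lower between the deletions, and, among lists, 17 lower small subunit and 17 lower large subunit ribosomal proteins, 16 lower amino acid synthesis genes and 49 higher mitochondrial ribosomal proteins. The median of 4 lists changed sign there, ergosterol synthesis at 0.08, glycolysis at 0.05, multidrug and oxidative response at 0.07 and purine and pyrimidine synthesis at 0.06, and the median of all genes moved by 0.16. DESeq2 gave 367 higher against wild type, 291 higher between the deletions, 10 higher mitochondrial ribosomal proteins and 3 higher trehalose and glycogen genes; the cause was not tested. RLE factors, the filters, the 6 libraries alone and the table without the rows with IDs ending in r kept each of these counts within 1.5 times its value.

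Leaving out 1 replicate at a time gave 534 to 598 higher and 784 to 829 lower genes against wild type, and 18 to 25 higher mitochondrial ribosomal proteins and 5 to 7 higher trehalose and glycogen genes, with both of the lowest counts without wild type replicate C. Of 208 genes examined singly in this comparison, 172 were called, of which 24 lost the call in at least 1 of these fits and 36 in at least 1 other setting, with none reversed. All 16 genes named by the rule between the deletions and the 10 examined between species kept their calls in the settings run. They had been chosen as the largest called differences with groups, or between species effects, apart, so this is weak support. Orthogroups named between species that had a library without counts were not examined.

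The replicate letters gave no sign of pairing the samples: deviations from the group means of same-lettered CAGL0M09955g deletion and wild type libraries correlated at 0.006, 0.0183 and 0.0243. Such values cannot exclude pairing, because counting noise also lowers them, and the labels do not say whether letters pair samples. With the letter as a replicate block, the counts were 704 higher and 882 lower against wild type, 564 and 803 between the deletions and 659 and 552 between species, and no count of the lists moved by more than 1.5 times. Genes with few counts limit the precision: 701 of 5461 genes were not tested.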
